A study of Mus musculus with 4 samples.

Results

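The 10 core transcription factors of naive mouse pluripotency were followed in embryonic stem cells sorted for or against a Zscan4 reporter: Pou5f1, Sox2, Nanog, Klf2, Klf4, Klf5, Esrrb, Tfcp2l1, Tbx3 and Zfp42. They were taken by symbol, 10 of the 19797 gene symbols of the RefSeq table, by a rule that uses no measured value. The list itself was chosen with earlier results of these data known. The cells were MC1-ZE7, a single reporter line on the MC1 (129S6/SvEvTac) background, in which the green fluorescent protein Emerald reports activity of a Zscan4 promoter. Zscan4 genes belong to a group otherwise transcribed in the 2-cell embryo, and in culture they are active in a small, changing share of embryonic stem cells. Both sorted fractions carried the reporter and came from cells kept without feeders on gelatin, with 15% serum and leukemia inhibitory factor (LIF) at 1000 U/ml. The Em+ fraction held cells with high Emerald fluorescence and the Em- fraction held cells without it, with 2 total RNA libraries each, depleted of ribosomal RNA and sequenced on an Illumina HiSeq. The description field of the labels names the opposite fraction in all 4 samples. Fractions here follow the titles, which the cell type field shares. Whether the libraries of 1 fraction stem from different cultures or sorts is not in the labels, and the p-values below therefore cover the spread among 4 libraries, part or all of which may be technical.

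Pou5f1 (Oct4), a POU-domain factor, and Sox2, an HMG-box factor, bind DNA side by side and form the base of the pluripotency network, and the homeodomain factor Nanog stabilises it. Around this trio sit factors that hold cells in the naive state of the preimplantation epiblast. These are the zinc finger factors Klf2, Klf4 and Klf5, the orphan nuclear receptor Esrrb, the CP2 family factor Tfcp2l1 and the T-box factor Tbx3. Klf4, Tfcp2l1 and Tbx3 pass on LIF signals, and Zfp42 (Rex1) is a zinc finger gene widely used as a marker of the naive state. Several of these genes are known to vary from cell to cell in serum and LIF. In sorted bulk RNA, a lower level can come from fewer cells with the transcript or from less transcript in each cell, and these cannot be told apart.

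Joint POU and SOX sites are a known feature of genes in this network. The sequences before the start sites of Nanog, Pou5f1 and Sox2 are shown, as these genes are compared with each other below. Whether motifs in these sequences bear on the levels below was not tested. RefSeq (GRCm38.p6) gave sequence for 8 of the 10 genes, in 11 windows of 250 bases that end at a start site. Capitals mark matches, on either strand, to the composite motif CATTGTNATGCAAA, its POU portion ATGCAAA, its SOX portion CATTGT, the GC box GGGCGGG, the KLF-type motif GGGCGTGG and the Esrrb-type motif AAGGTCA. The portions lie within the composite, so a composite match is also a match of both. Each sequence runs 5′ to 3′ toward its start, on the + strand, at chr6:122707239-122707488 for Nanog, chr17:35505782-35506031 for Pou5f1 and chr3:34649745-34649994 for Sox2, whose start there lies 10 bases before the one in the deposited table.
Nanog: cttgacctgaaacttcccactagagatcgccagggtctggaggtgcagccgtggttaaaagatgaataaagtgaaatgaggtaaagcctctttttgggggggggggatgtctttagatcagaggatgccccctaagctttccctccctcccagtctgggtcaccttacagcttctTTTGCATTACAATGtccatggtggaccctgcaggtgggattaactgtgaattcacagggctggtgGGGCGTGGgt
Pou5f1: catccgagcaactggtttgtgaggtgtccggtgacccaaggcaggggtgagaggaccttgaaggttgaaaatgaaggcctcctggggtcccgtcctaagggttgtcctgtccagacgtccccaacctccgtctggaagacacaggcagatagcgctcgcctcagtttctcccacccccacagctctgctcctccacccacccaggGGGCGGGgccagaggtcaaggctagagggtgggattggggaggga
Sox2: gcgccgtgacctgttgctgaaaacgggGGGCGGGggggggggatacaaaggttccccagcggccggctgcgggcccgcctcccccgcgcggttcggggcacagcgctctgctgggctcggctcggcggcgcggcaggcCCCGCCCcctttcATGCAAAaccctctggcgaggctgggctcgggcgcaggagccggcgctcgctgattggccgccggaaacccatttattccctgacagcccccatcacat

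Nanog was the gene with the composite motif, on the opposite strand at chr6:122707414-122707427. That is 75 to 62 bases before the start of the RefSeq transcript NM_001289831, and it begins 151 bases before the start shared by the other Nanog transcripts. The printed Nanog window ends at the start of NM_001289831, which held 2 counts or fewer in each library. NM_028016, which held nearly all Nanog counts, uses the shared start. Both windows with this motif, 2 of 32851 or 0.00609% of all windows of this length, were the overlapping windows of Nanog. The POU portion occurred alone before Sox2, 99 to 93 bases upstream, and before Zfp42, 185 to 179 bases upstream, and 4.12% of all windows held it. The SOX portion (10.7% of all windows) occurred apart from Nanog in the window of the inner Pou5f1 start. GC boxes stood before Pou5f1, Sox2, Klf2, Klf4 and Zfp42 (23.4% of all windows), and the KLF-type motif before Nanog and Tfcp2l1 (4.79%). The Esrrb-type motif, in 4.08% of all windows, was in none of the 11. These matches describe letters in short windows, and distal enhancers of these genes lie outside them.

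The libraries held 17927765 and 16468218 RefSeq counts in Em+ cells, against 18364973 and 18953217 in Em- cells. Zscan4 genes together, the check of the labels, reached 212 and 224 CPM in Em+ cells, against 1.81 and 2.27 CPM in Em- cells (CPM are counts scaled by TMM to a common library size). Em+ replicate 2 stood apart. RefSeq counts made up 43.4% of the reads behind its FPKM, against 49.0% in Em+ replicate 1 and 51.1 and 50.7% in Em- cells, and the ribosomal RNA precursor Rn45s took 7.95% of its counts, against 3.93 to 4.33% in the other libraries. All 8 markers listed for embryonic stem cells passed 1 FPKM (reads scaled by transcript length and library total), 5 of them among the 10 factors. Summed primitive endoderm markers stood at 112 and 88.5 FPKM in Em+ cells, against 119 and 122 FPKM in Em- cells. Of the 16 listed, 9 were under 1 FPKM on average, Gata6, Sox17 and Foxa2 among them. The other 7 were not, with Gata4 and Hnf4a among these. The most abundant was Sparc, at 53.7 and 41.0 FPKM in Em+ cells, against 56.1 and 56.5 FPKM in Em- cells. Summed fibroblast markers stood at 35.9 and 46.8 FPKM in Em+ cells, against 35.6 and 36.8 FPKM in Em- cells. The part of depth, ribosomal RNA and these markers in the results below was not tested.

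All 10 factors were detected in both fractions, and together they took 0.471 and 0.440% of the counts in Em+ cells, against 0.482 and 0.481% in Em- cells. Nanog and Tbx3 were higher in Em+ cells, and no factor passed the test as lower. That is 2 of 10 higher, where 3.82% of the 12050 tested genes were called higher, and 0 of 10 lower, where 0.822% were. The test was edgeR's quasi-likelihood fit over all genes with a mean of at least 1 FPKM, which all 10 factors passed, with p-values adjusted over all of them by Benjamini and Hochberg and 0.05 as the threshold. Before adjustment, 3 factors lay above and 3 below (Pou5f1, Sox2 and Esrrb) at p under 0.05, while 25.3% of all genes had such a p, 14.5% above and 10.7% below. DESeq2 called 3 factors, Nanog and Tbx3 higher and Sox2 lower (adjusted p = 0.0325), where it called 5.63% of all genes and 1.25% lower. By limma, 0 factors were called on log2(FPKM + 1), where 2.43% of genes were, or on log2(FPKM + 0.1), where 2.23% were. In each, 1 factor had an unadjusted p under 0.05. These FPKM rest on library totals, without TMM scaling. By scaled CPM, 7 factors had no overlap between fractions, 3 above and 4 below, while 59.4% of all genes did not overlap, 29.7% in each direction. The median log2 fold change (Em+ over Em-) of all 10 factors was 0.05, against 0.00 over all tested genes.

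**Figure D1:**
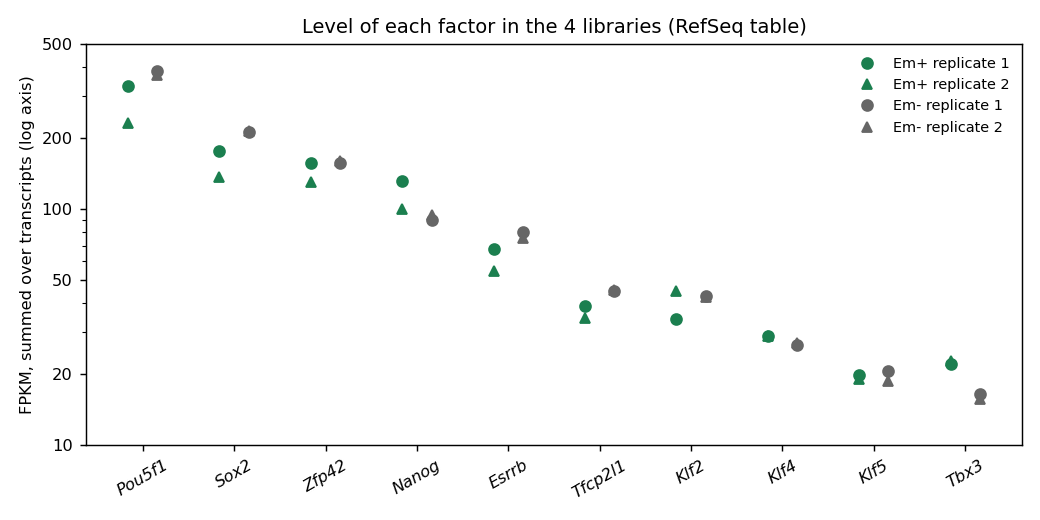
Level of the 10 factors in each library, as FPKM summed over RefSeq transcripts on a log axis, with Em+ replicates in green left of Em- replicates in grey. Tbx3 lies at 22.2 and 22.7 FPKM in Em+ cells, above 16.4 and 15.7 FPKM in Em- cells, while Pou5f1 lies at 331 and 232 FPKM in Em+ cells, against 384 and 370 FPKM in Em- cells, and did not pass the test.

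Pou5f1 had 759 and 627 CPM in the Em+ libraries, against 854 and 820 CPM in the Em- libraries. The Em+ libraries lay below both Em- libraries, and the lowest was Em+ replicate 2. The log2 fold change was −0.27 (SE 0.10, adjusted p = 0.161 by edgeR). Sox2 had 879.7 and 806 CPM in Em+ cells, against 1029 and 1032 CPM in Em- cells. Here too the groups did not overlap, and the log2 fold change of −0.29 (SE 0.08) did not pass (adjusted p = 0.0933 by edgeR). Nanog, the third of the trio, went the other way, with 594 and 528 CPM in Em+ cells, against 393 and 413 CPM in Em- cells. Both Em+ libraries lay above both Em- libraries, 561 ± 46.5 CPM against 403 ± 13.6 CPM (SD, n = 2 each), a 1.39-fold higher level. On the log2 scale this was 0.48 (SE 0.08, adjusted p = 0.0192 by edgeR). With Em- replicate 1 left out the call of Nanog was lost (0.44, adjusted p = 0.211), and with Em- replicate 2 left out as well (0.51, adjusted p = 0.0714). Tbx3 was then the 1 factor called, where 4.07 and 4.87% of all genes were.

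Nanog was also set against Pou5f1 within each library, a ratio that no scaling between libraries can move. The pair was chosen with its values known, and the difference restates that between the fold changes of both genes. It is a ratio of raw counts, not per length, so only its difference between libraries is read. Nanog counts were 0.783 and 0.843 of Pou5f1 counts in Em+ cells, against 0.460 and 0.503 in Em- cells. The log2 ratio was −0.30 ± 0.08 in Em+ cells and −1.06 ± 0.09 in Em- cells (SD, n = 2 each), a difference of 0.75 or 1.69-fold. With 2 libraries against 2 the exact two-sided permutation test cannot go below p = 0.333, which is the value it gave. Tbx3 stood at 0.277 and 0.402 of Pou5f1 counts in Em+ cells, against 0.176 and 0.176 in Em- cells. Sox2 kept close to Pou5f1, at 1.16 and 1.29 in Em+ cells, against 1.20 and 1.26 in Em- cells, and the fractions overlapped. Of the 9 other factors, Nanog, Tbx3, Zfp42, Klf4 and Klf5 had ratios to Pou5f1 above those of Em- cells in both Em+ libraries, and those of Esrrb, Tfcp2l1, Klf2 and Sox2 overlapped. The ratio lay above in this way for 70.4% of all tested genes, and Pou5f1 itself lay below in both Em+ libraries.

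**Figure D2:**
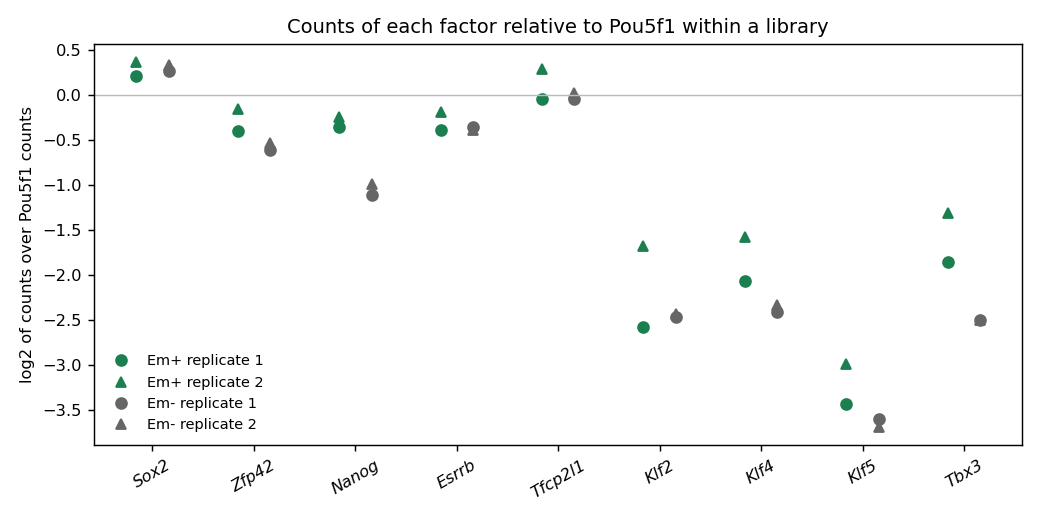
Log2 of the counts of each factor over those of Pou5f1 in the same library, with Em+ replicates in green left of Em- replicates in grey. Nanog lies at −0.35 and −0.25 in Em+ cells, clear of −1.12 and −0.99 in Em- cells, while Sox2 overlaps between the fractions.

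Of the 3 Krüppel-like factors, which share a zinc finger domain and overlap in function, none passed the test. Klf4 had 180.3 and 210.2 CPM in Em+ cells, against 160.1 and 163 CPM in Em- cells. The Em+ libraries lay above, with a log2 fold change of 0.27 (SE 0.08, adjusted p = 0.107 by edgeR). Klf5 had 70.0 and 79.0 CPM in Em+ cells, against 70.4 and 63.4 CPM in Em- cells. The fractions overlapped, and the log2 fold change was 0.16 (SE 0.09, adjusted p = 0.328 by edgeR).

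Klf2 split the Em+ libraries. It had 127 CPM in Em+ replicate 1 and 196 CPM in Em+ replicate 2, against 153.9 and 152 CPM in Em- cells, so that the Em+ libraries lay on either side of the Em- pair. The gap between the Em+ libraries was 1.54-fold, larger than for 96.18% of tested genes, and the gap between the Em- libraries was 1.01-fold. Over all tested genes the median gap was 1.10-fold in Em+ cells and 1.04-fold in Em- cells. With all libraries the log2 fold change was 0.08 (SE 0.17, adjusted p = 0.805 by edgeR). Without Em+ replicate 2 it was −0.27, and without Em+ replicate 1 it was 0.36, so each Em+ library alone gave its own direction. Such fits take the spread from the Em- pair alone.

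Tbx3 gave the highest fold change of the 10 factors. It had 209.9 and 252 CPM in Em+ cells, against 151 and 144 CPM in Em- cells. Both Em+ libraries lay above, 231 ± 29.97 CPM against 147 ± 4.65 CPM (SD, n = 2 each), a 1.57-fold higher level or 0.65 on the log2 scale (SE 0.09, adjusted p = 0.00855 by edgeR). Tbx3 was called higher whichever library was left out, with log2 fold changes of 0.51 to 0.78. It was not called with library totals in place of TMM scaling (log2 fold change 0.48, adjusted p = 0.0563), where 0 factors and 5.20% of all genes were called and 3 factors had an unadjusted p under 0.05, nor by limma with a pseudocount of 1 or 0.1 (adjusted p = 0.155 and 0.164).

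Esrrb, Tfcp2l1 and Zfp42 did not pass the test. Esrrb, which Nanog activates and which can stand in for it, had 579.8 and 549.7 CPM in Em+ cells, against 665 and 624 CPM in Em- cells. The Em+ libraries lay below, with a log2 fold change of −0.19 (SE 0.08) that did not pass (adjusted p = 0.175 by edgeR). Tfcp2l1 had 732 and 766 CPM in Em+ cells, against 825 and 829 CPM in Em- cells. It too lay below without overlap, at −0.14 (SE 0.08, adjusted p = 0.275 by edgeR). Zfp42 had 573 and 563 CPM in Em+ cells, against 559 and 565 CPM in Em- cells. The fractions overlapped, with gaps between scaled CPM of 1.02-fold in Em+ cells and 1.01-fold in Em- cells, with a difference of 0.02 on the log2 scale (SE 0.07, adjusted p = 0.902 by edgeR).

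**Figure D3:**
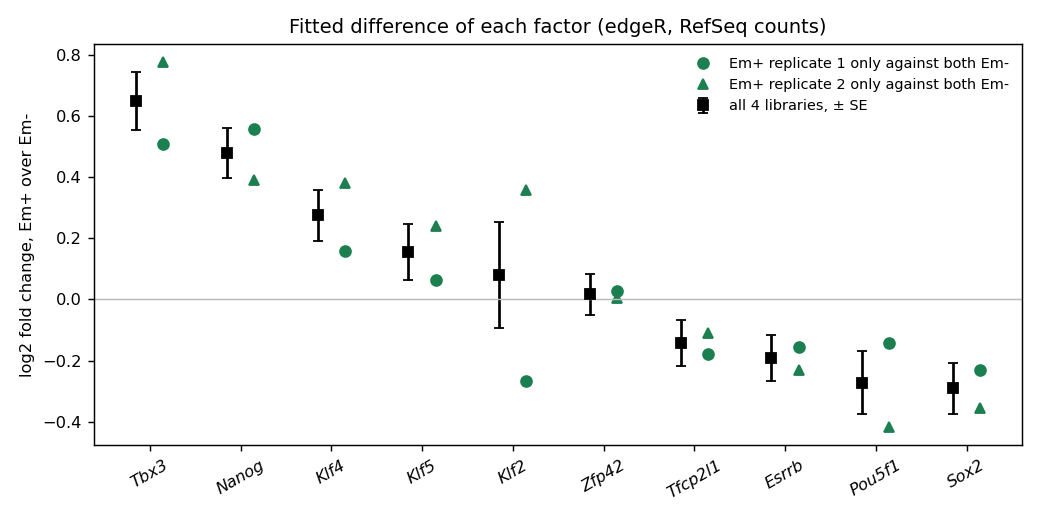
Log2 fold change (Em+ over Em-) of each factor, with black squares and bars for the fit to all 4 libraries ± SE and green marks for fits that keep 1 Em+ library against both Em- libraries. Klf2 is the factor whose green marks lie furthest apart, at −0.27 with Em+ replicate 1 and 0.36 with Em+ replicate 2.

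More factors were called when either Em+ library was left out. Without Em+ replicate 1, 9 of the 10 were called, where 41.4% of all genes were, and without Em+ replicate 2, 8 were called, where 16.3% were. In these fits the lone Em+ library is assumed to vary like the Em- pair. Pou5f1 (−0.42 and −0.14), Sox2 (−0.35 and −0.23), Esrrb (−0.23 and −0.15) and Tfcp2l1 (−0.11 and −0.18) were called lower in both, and Nanog, Klf4 and Tbx3 higher in both, the first value being without Em+ replicate 1. Zfp42 was called in neither.

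Per length, the order of the factors in Em- cells was Pou5f1, Sox2, Zfp42, Nanog, Esrrb, Tfcp2l1, Klf2, Klf4, Klf5 and Tbx3, and no neighbours in this order overlapped in FPKM. It ran from 384 and 370 FPKM for Pou5f1 to 16.4 and 15.7 FPKM for Tbx3. In Em+ cells the libraries overlapped between Sox2 (176 and 137 FPKM) and Zfp42 (156 and 131 FPKM). Zfp42 also overlapped Nanog (132 and 99.7 FPKM), and Klf2 (34.4 and 45.1 FPKM) overlapped Tfcp2l1 (38.7 and 34.5 FPKM). Within each Em+ library, Sox2 still stood above Zfp42 and Zfp42 above Nanog. Klf2 stood below Tfcp2l1 in Em+ replicate 1 and above it in Em+ replicate 2. On RefSeq transcripts, Tbx3 stood above Klf5 in both Em+ libraries (22.2 and 22.7 FPKM, against 19.9 and 19.1 FPKM). Klf5 stood above Tbx3 in both Em- libraries (20.7 and 18.7 FPKM, against 16.4 and 15.7 FPKM). Among the 12050 tested genes Nanog ranked 176 and 187 by FPKM in Em+ cells, against 314 and 294 in Em- cells, counting from the most abundant. Pou5f1 ranked 56 and 61 in Em+ cells, against 55 and 54 in Em- cells. Tbx3 ranked 2014 and 1501 in Em+ cells, against 2969 and 3098 in Em- cells.

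Of the 10 genes, 3 have more than 1 RefSeq transcript in the table (mm10, 1-based). For Nanog nearly all counts sat on NM_028016 (chr6:122707565-122714633), with 10652 and 8352 counts in Em+ cells, against 7155 and 7820 in Em- cells. The other Nanog transcripts, including NM_001289831 with the upstream start, held 6 counts or fewer in any library. For Tbx3, NM_011535 (chr5:119671233-119684724) had 3599 and 3851 counts in Em+ cells, against 2593 and 2611 in Em- cells. The longer NM_198052 (chr5:119670862-119684724) had 167 and 143 counts in Em+ cells, against 148 and 123 in Em- cells, which overlap. Pou5f1 counts were divided between NM_013633 (chr17:35506032-35510777), with 6100 and 4481 in Em+ cells, against 7089 and 6931 in Em- cells, and the shorter NM_001252452 (chr17:35508807-35510777). The shorter one had 7517 and 5448 counts in Em+ cells, against 8456 and 8632 in Em- cells. The transcripts share exons, and how the authors assigned shared reads is not given in the sources used here. On NM_013633 alone Pou5f1 would stand at 123 and 87.4 FPKM in Em+ cells, against 146 and 137 FPKM in Em- cells. That is below Sox2 and Zfp42 in every library, and below Nanog in both Em+ libraries but above it in both Em- libraries. The first place and the ranks of Pou5f1 given above thus rest on the sum over its transcripts.

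The other 3 deposited tables count the same libraries on known-gene, Ensembl and ENCODE transcripts. Sox2, Nanog, Klf2, Klf5 and Zfp42 had within 3% of their RefSeq counts in each of them, over the 4 libraries, and Klf4 had 106.7% in the Ensembl and ENCODE tables. Tfcp2l1 had 2.32% of its RefSeq counts in the Ensembl and ENCODE tables, 297 and 271 counts in Em+ cells, against 377 and 357 in Em- cells, where the RefSeq table has 13139 and 12126 in Em+ cells, against 15018 and 15729 in Em- cells. The Ensembl model spans the same bases as the RefSeq one but for the last base (chr1:118627945-118685167), and a 130-base predicted gene within it, Gm23497, held 720 and 656 counts in Em+ cells, against 825 and 885 in Em- cells. Esrrb had 22.1% and Tbx3 41.3% of their RefSeq counts in these tables, and Pou5f1 had 70.6%, or 73.6% in the known-gene table. In the known-gene table the Esrrb counts sat on X89594, which starts inside the gene at chr12:86470117, with 10401 and 8698 counts in Em+ cells, against 12100 and 11838 in Em- cells. There NM_011934, from chr12:86421644, had 13 and 19 counts in Em+ cells, against 30 and 27 in Em- cells. The cause of these gaps was not tested. They leave the direction of Nanog and Tbx3 as it was, with both called higher in each table. There 3.05% (known-gene), 3.38% (Ensembl) and 3.42% (ENCODE) of genes were called higher. A level of Tfcp2l1, Esrrb, Tbx3 or Pou5f1, however, rests on the transcript model chosen. The order of the factors by FPKM given above is that on RefSeq transcripts.

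**Figure D4:**
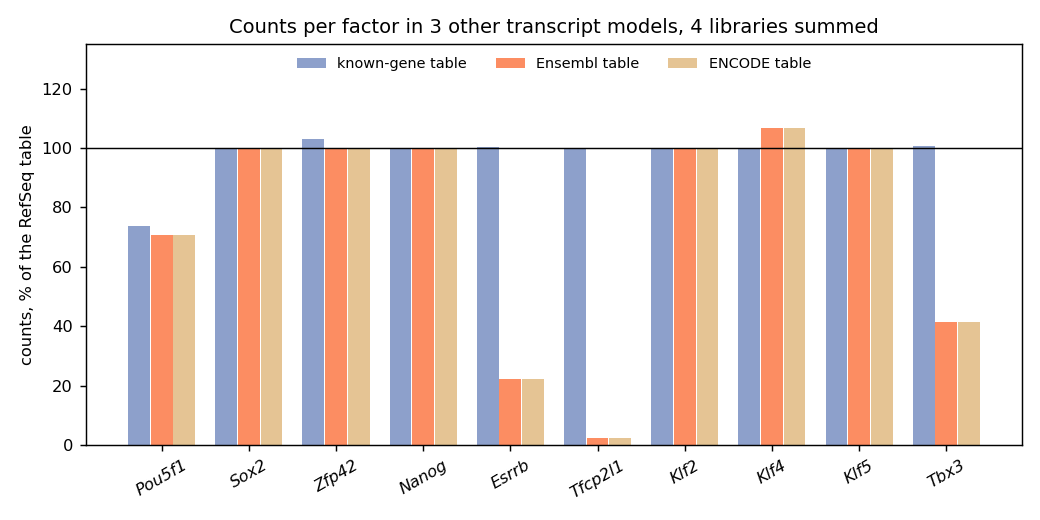
Counts of each factor in the known-gene, Ensembl and ENCODE tables as a percentage of its RefSeq counts, summed over the 4 libraries, with a line at 100%. Tfcp2l1 stands at 2.32%, Esrrb at 22.1% and Tbx3 at 41.3% in the Ensembl and ENCODE tables.

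The factors work with a wider set of genes, and lists of these were read from the same fit. There 4.64% of all tested genes were called, 3.82% higher and 0.822% lower. DESeq2 called 5.63% of all genes, 1.25% lower, and limma on log2(FPKM + 1) called 2.43%. Before adjustment, 14.5% of all genes lay above and 10.7% below at p under 0.05. Of 40 tested factors that share the network, 2 were higher and 1 lower, with a median log2 fold change of 0.00. DESeq2 called 2 higher and 2 lower and limma 2 higher, while 7 lay above and 10 below before adjustment at p under 0.05. Dppa2, which works with Dppa4 on chromatin of developmental genes, was at 40.7 and 39.9 CPM in Em+ cells, against 19.7 and 18.6 CPM in Em- cells (a log2 fold change of 1.08, adjusted p = 0.000252 by edgeR). Id3, a target of BMP signals that restrains differentiation, was at 16.1 and 17.2 CPM in Em+ cells, against 8.68 and 9.54 CPM in Em- cells (0.87, adjusted p = 0.00638 by edgeR). Mycn, a MYC family factor, was lower at 155 and 147 CPM in Em+ cells, against 199 and 189 CPM in Em- cells (−0.36, adjusted p = 0.0252 by edgeR). Mycn lost its call with either Em- library left out (adjusted p = 0.297 and 0.095).

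Of 26 tested signal, surface and marker genes of the naive state, 1 was higher and 2 were lower, with a median of −0.17. DESeq2 called 2 higher and 5 lower, and limma 0. Before adjustment 2 lay above and 10 below at p under 0.05, where 14.5 and 10.7% of all genes did. By scaled CPM, 2 of the 26 lay above and 15 below without overlap, where 29.7% of all tested genes did in each direction. Fbxo15, an F-box gene driven by Pou5f1 and Sox2, was higher with 92.9 and 81.4 CPM in Em+ cells, against 51.1 and 52.4 CPM in Em- cells (log2 fold change 0.75, adjusted p = 0.0031 by edgeR). Tdh, a threonine dehydrogenase that mouse embryonic stem cells depend on, was lower with 157 and 145 CPM in Em+ cells, against 192 and 184 CPM in Em- cells (−0.31, adjusted p = 0.048 by edgeR). Lin28a, an RNA-binding protein that blocks let-7 maturation, was lower with 312 and 258 CPM in Em+ cells, against 381 and 394 CPM in Em- cells (−0.44, adjusted p = 0.0451 by edgeR). With either Em- library left out, neither Tdh nor Lin28a was called. Of 16 tested genes of the formative and primed states, those that follow the naive one, 0 were higher and 2 lower, with a median of −0.07, and 2 lay above and 5 below before adjustment at p under 0.05. DESeq2 called 0 higher and 4 lower, and limma 0 higher and 1 lower. Dusp6, an ERK phosphatase induced by FGF signals, had 67.1 and 58.6 CPM in Em+ cells, against 94.4 and 90.6 CPM in Em- cells (−0.56, adjusted p = 0.0121 by edgeR). Tead2, a TEAD factor of the Hippo pathway and the most abundant of this list, had 20.2 and 15.9 FPKM in Em+ cells, against 25.0 and 25.5 FPKM in Em- cells (−0.33, adjusted p = 0.0447 by edgeR) and lost its call with either Em- library left out.

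Relatives of the 10 factors in the POU, SOX, KLF, T-box and other families did not pass the test. Of 27 tested, edgeR called 0, DESeq2 0 and limma 0, and the median was 0.04. Before adjustment, 10 of the 27 lay above and 5 below at p under 0.05, where 14.5 and 10.7% of all genes did. The most abundant was Klf10, at 42.2 and 33.1 FPKM in Em+ cells, against 43.6 and 44.9 FPKM in Em- cells (−0.08, adjusted p = 0.5 by edgeR). Primitive endoderm (7 tested), trophectoderm (6), neuroectoderm (2) and mesoderm (1) markers had 0 calls by edgeR, DESeq2 or limma, with 0, 1, 1 and 0 above and 1, 2, 0 and 0 below at an unadjusted p under 0.05. Of 3 tested fibroblast markers Thy1 was higher (0.89, adjusted p = 0.00386 by edgeR). Of 12 listed markers of the 2-cell stage, 7 passed the filter on low values, through their level in Em+ cells, and 5 did not. The sort itself used a Zscan4 reporter, so no test of these genes between the fractions is read here.

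**Figure D5:**
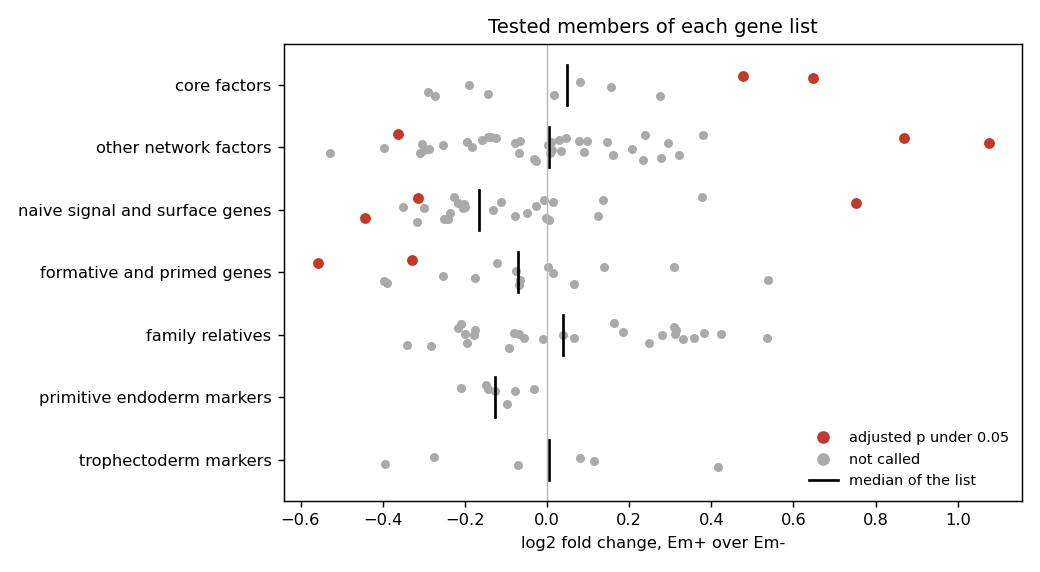
Log2 fold change (Em+ over Em-) of every tested gene of 7 lists, 1 point a gene, with genes at an adjusted p under 0.05 in red and a black bar at each list's median. The core factors spread from −0.29 for Sox2 to 0.65 for Tbx3 around a median of 0.05.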

How the data were processed

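Per the file headers, the authors deposited 4 tables with a raw count and an FPKM for each transcript and library. The submitters' processing notes name Bowtie2 and mm10, and the program that counted reads is not given in the sources used here. The deposited FPKM equals count over length and library total, truncated, for 99.74 to 99.77% of transcripts. The count column of Em- replicate 1 is empty in the RefSeq and Ensembl tables, so its counts were computed from its FPKM. The same step returned the deposited count of the other libraries for 99.95 to 99.97% of 24538 RefSeq transcripts.

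Counts were summed per symbol. edgeR 4.0.16 (R 4.3.3, TMM scaling, two-sided quasi-likelihood test, no covariate) was fitted to the 12050 genes with a mean of at least 1 FPKM, with adjustment over all of them and a threshold of 0.05. Its fold changes were checked on simulated counts with the same spread in every library. That check does not cover p-values where Em+ libraries vary more than Em- libraries. The common biological coefficient of variation was 0.0731. Alternatives used DESeq2 1.42.0, limma 3.58.1, other scalings, filters and tables, a replicate block and fits without each library. The 10 factors and all lists were chosen with earlier results of these data known. All 10 factors were named, and from each other list the genes past the threshold, at most 6, plus the most abundant relative and formative or primed gene. Start coordinates in the files count from 0, judged by 95.87% of 63851 shared transcripts, and are printed counting from 1. Promoter sequences came from RefSeq (GRCm38.p6).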

Additional observations from a re-analysis of the deposited data

How the results depend on the processing

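Tbx3 was called higher in 15 of 18 alternatives and Nanog in 13 of 18, and both had a positive log2 fold change in all 18. The number of factors called was 0 with library totals in place of TMM scaling (edgeR, 3 at an unadjusted p under 0.05) and 0 by limma at either pseudocount (1 at an unadjusted p under 0.05), against 2 in edgeR's main result and 3 by DESeq2. Over fits without 1 library it ran between 1 and 9. The number of all genes called, 559 in the main result, was 293 and 269 by limma with a pseudocount of 1 and 0.1, 1178 with no filter, 171 with a mean of at least 5 FPKM, and 490 to 4992 without 1 library. Library totals called 334 genes higher and 293 lower, against 460 and 99 with TMM scaling, and moved the median of all genes by −0.16. Klf2 turned to −0.10 with library totals, −0.11 and −0.12 by limma and −0.27 without Em+ replicate 2, against 0.36 without Em+ replicate 1. Klf5 turned to −0.01 with library totals and by limma at both pseudocounts (−0.0113, −0.0093 and −0.0097), and Zfp42 to −0.14, −0.15 and −0.15 in the same settings and to −0.043 with no filter. Limma was run on FPKM, which rest on the same library totals without TMM scaling, and the median of all genes there was −0.14 and −0.16. The cause of these turns was not tested. The shift of all genes that library totals bring by construction is part of both settings. The Nanog to Pou5f1 difference was 0.69 to 0.82 without 1 library. With a replicate block 1552 genes and 3 factors were called, Klf4 (adjusted p = 0.0423) beside Nanog and Tbx3, and the Nanog to Pou5f1 difference, the mean over pairs, was 0.75, equal to the main value by construction. No label says that the numbers mark a shared culture, and deviations of same-numbered libraries correlated at 0.016 over 12050 genes. Tfcp2l1 fell under the FPKM filter in the Ensembl and ENCODE tables and has no value there.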
